A study of Homo sapiens with 4 samples.

Results

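The G1 cyclins, their kinases CDK4 and CDK6, and those CDK inhibitors that do not depend on p53 were followed in RPE1 cells after knockdown of SAF-A. The 10 genes were taken by symbol: the D-type cyclins CCND1, CCND2 and CCND3, the E-type cyclins CCNE1 and CCNE2, the kinases CDK4 and CDK6, and the inhibitors CDKN1B, CDKN1C and CDKN2B. They are 10 of the 25027 symbols or unmatched identifiers in the deposited gene tables. Of the 10, 8 had a mean of at least 1 FPKM (fragments scaled to transcript length and library depth, the deposited unit) over the libraries and entered the counts below, as did 11631 genes in all. CCND2 and CDKN1C did not. RPE1 is an established line of human retinal pigment epithelium that grows without limit through added telomerase. The 4 libraries were RPE1 cells given a negative control siRNA for 24 h, the same siRNA for 48 h, a siRNA against SAF-A (gene HNRNPU, a nuclear RNA-binding and chromatin-associated protein) for 24 h, and that siRNA for 48 h. All 4 cultures received siRNA at 10 nM with the same lipid reagent, no untransfected culture was included among them, and SAF-A was targeted with a single siRNA sequence. Ribosomal RNA was removed from total RNA and sequencing gave single-end reads of 50 bases. Where 4 values follow each other, they are in library order: control and then SAF-A siRNA at 24 h, then the same pair at 48 h.

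Each group was 1 library, so no comparison has a replicate check, no test was run and no p-value is given. The values given with a level are the bounds of the 95% interval deposited beside it, which covers the uncertainty of estimating that level from the reads of that library and not the spread between cultures. A difference is given on the log2(FPKM + 1) scale, which understates the change of genes with low levels, and a ratio is followed by the span between the most extreme bounds of the 2 intervals. The mapped reads implied by the deposited coverage were 28083822 and 28586051 in the control libraries of 24 h and 48 h and 30701282 in the SAF-A library of 24 h, but 1216740 in the SAF-A library of 48 h. For a transcript of 2 kilobases, 1 FPKM stood for 50.5 to 55.2 reads in the 3 deep libraries and for 2.19 reads in the shallow one. HNRNPU itself was at 91.2 and 84.6 FPKM under control siRNA and at 10.4 and 9.24 FPKM under SAF-A siRNA, which is 11.4% of the control level at 24 h and 10.9% at 48 h. RNAs shorter than 300 bases took 60.2%, 63.8%, 57.3% and 50.9% of all FPKM, in library order. Of 12 markers of retinal pigment epithelium, 4 (KRT8, KRT18, MITF and OTX2) reached 1 FPKM in each library, RPE65 was listed at 0 in all 4, and the list summed to 197, 169, 307 and 46.1 FPKM, KRT18 and KRT8 holding most of it. In the 3 deep libraries the deposited rows of these 2 keratins are marked as failed and carry intervals that leave out their own levels, so no difference is read from those sums. Of 6 mesenchymal markers 5 or 6 reached 1 FPKM in a library, with sums of 2615, 2296, 1942 and 3725 FPKM. None of 8 markers of cells foreign to the line did, with sums of 0.175 to 0.347 FPKM.

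A cell leaves G1 when D-type cyclins, made in response to mitogens, bind CDK4 or CDK6 and start to phosphorylate the retinoblastoma protein. E-type cyclins with CDK2 complete that step and release E2F factors, which switch on the genes of DNA synthesis and the E-type cyclins themselves. INK4 proteins such as p15 (CDKN2B) bind CDK4 and CDK6 and keep D-type cyclins off them, while CIP/KIP proteins such as p27 (CDKN1B) and p57 (CDKN1C) bind cyclin and kinase together and block CDK2 above all.

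The stretches of DNA just upstream of CDK4, CDK6 and CDKN1B are shown because CDK4 and CDK6 were the members at least 2-fold higher after SAF-A knockdown at 48 h, and CDKN1B was the member at least 2-fold higher at 48 h than at 24 h in control cells. They are the 250 bases before a transcription start in RefSeq (GRCh38.p14), 5′ to 3′ along the gene. Capitals mark the E-box CACGTG, which MYC and MAX bind, and the GC box GGGCGG, which SP1 binds, read on both strands, so that CCGCCC is a GC box on the other strand.
CDK4, chr12:57752311-57752560, minus strand: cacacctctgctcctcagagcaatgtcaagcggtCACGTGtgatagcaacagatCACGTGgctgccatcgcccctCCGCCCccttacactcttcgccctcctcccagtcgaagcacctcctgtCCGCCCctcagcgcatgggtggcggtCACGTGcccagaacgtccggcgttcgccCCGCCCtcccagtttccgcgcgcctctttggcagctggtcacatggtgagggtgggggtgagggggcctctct
CDK6, upstream start, chr7:92836574-92836823, minus strand: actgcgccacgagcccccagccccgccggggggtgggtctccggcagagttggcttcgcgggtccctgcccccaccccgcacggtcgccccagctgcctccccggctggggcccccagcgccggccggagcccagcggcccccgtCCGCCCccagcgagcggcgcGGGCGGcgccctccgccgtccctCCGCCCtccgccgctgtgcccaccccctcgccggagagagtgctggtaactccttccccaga
CDK6, downstream start, chr7:92833960-92834209, minus strand: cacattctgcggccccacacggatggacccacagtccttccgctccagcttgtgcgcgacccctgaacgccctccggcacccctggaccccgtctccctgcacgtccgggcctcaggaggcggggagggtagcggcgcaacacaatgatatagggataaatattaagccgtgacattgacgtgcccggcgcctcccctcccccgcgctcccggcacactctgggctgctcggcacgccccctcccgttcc
CDKN1B, chr12:12717118-12717367, plus strand: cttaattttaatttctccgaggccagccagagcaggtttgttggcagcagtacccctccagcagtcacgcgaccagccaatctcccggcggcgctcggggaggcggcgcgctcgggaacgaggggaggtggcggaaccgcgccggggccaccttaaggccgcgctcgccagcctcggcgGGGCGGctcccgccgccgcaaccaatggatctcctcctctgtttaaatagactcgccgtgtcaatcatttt
The CDK4 window held 3 E-boxes, whose first bases lie 216, 196 and 101 bases before the start, and 3 GC boxes at 175, 127 and 73 bases. Among all 35116 listed starts, 6.34% had at least 1 E-box in a window of the same length, and 28 starts (0.0797%) had 3 or more. At least 3 GC boxes stood in 13.9% of windows and at least 1 in 42.6%. The upstream CDK6 window held 3 GC boxes (105, 85 and 62 bases before the start) and no E-box, and the downstream one held neither motif. The CDKN1B window held 1 GC box, 71 bases before the start. In total 6 of the 10 genes matched the promoter table, with 9 starts. CCND1, CCND2, CCNE2 and CDKN1C had no window, so the motif search does not cover them. The E2F motifs TTTGGCGC, TTTCGCGC, TTTCCCGC and TTTGCCGC (2.79% of all windows) and the FOXO motif GTAAACA (2.98%) were also searched on both strands and had no match in any of the 9 windows. The motifs overlap neither each other nor themselves in the windows shown, and a match describes letters, not binding. MYC was lower after SAF-A knockdown with intervals apart, at 30.0 and 24.4 FPKM at 24 h and 40.8 and 7.98 FPKM at 48 h. The last value rests on 21 reads. MAX was at 30.1 and 26.7 FPKM at 24 h and 38.1 and 97.8 FPKM at 48 h, with overlapping intervals at both times. A link of either to CDK4 was not tested.

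At 24 h CDK6 and CCNE2 were higher and CCNE1 lower after SAF-A knockdown with deposited intervals apart, and at 48 h CDK4 and CDK6 were higher and CCND1, CCND3, CCNE2 and CDKN1B lower with intervals apart. That is 3 of the 8 members at 24 h, beside 26.4% of all tested genes with usable intervals, and 6 of the 8 at 48 h, beside 48.5%. On the log2(FPKM + 1) scale, which all 2-fold counts use, no member was at least 2-fold higher at 24 h, against 1.83% of all genes tested, and none was at least 2-fold lower, against 1.25%. At 48 h CDK4 and CDK6 were at least 2-fold higher (2 of 8, against 14.2% of all genes) and CCND3, CCNE2 and CDKN1B at least 2-fold lower (3 of 8, against 20.1%). The median difference of the 8 members was -0.01 at 24 h and -0.71 at 48 h, beside -0.06 and -0.12 for all genes tested. The 48 h median ran from -1.24 to 0.09 when taken from the lowest and the highest bounds of the members, so its sign is not settled by the intervals, and with no filter on low FPKM, which brings in CCND2 and CDKN1C, it was -0.41. Over time, CDKN1B was the one member at least 2-fold higher at 48 h than at 24 h under control siRNA (1.79% of all genes) and none was 2-fold lower (1.36%). Under SAF-A siRNA, CDK4 was at least 2-fold higher at 48 h than at 24 h (15.1% of all genes) and CCNE2 at least 2-fold lower (17.8%). Many of the genes called at 24 h and over time in control cells were short RNAs: among the 11053 genes of at least 300 bases, a set counted after the data were seen, 0.389% were higher and 0.244% lower at 24 h, and 0.561% and 0.425% over time in control cells. At 48 h those shares were 14.3% and 18.5%. The share of genes past 2-fold was thus far larger in both comparisons that use the shallow library, and the part of depth in this was not tested. As these are bulk libraries, fewer cells that express a gene and less of its RNA per cell cannot be told apart.

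**Figure D1:**
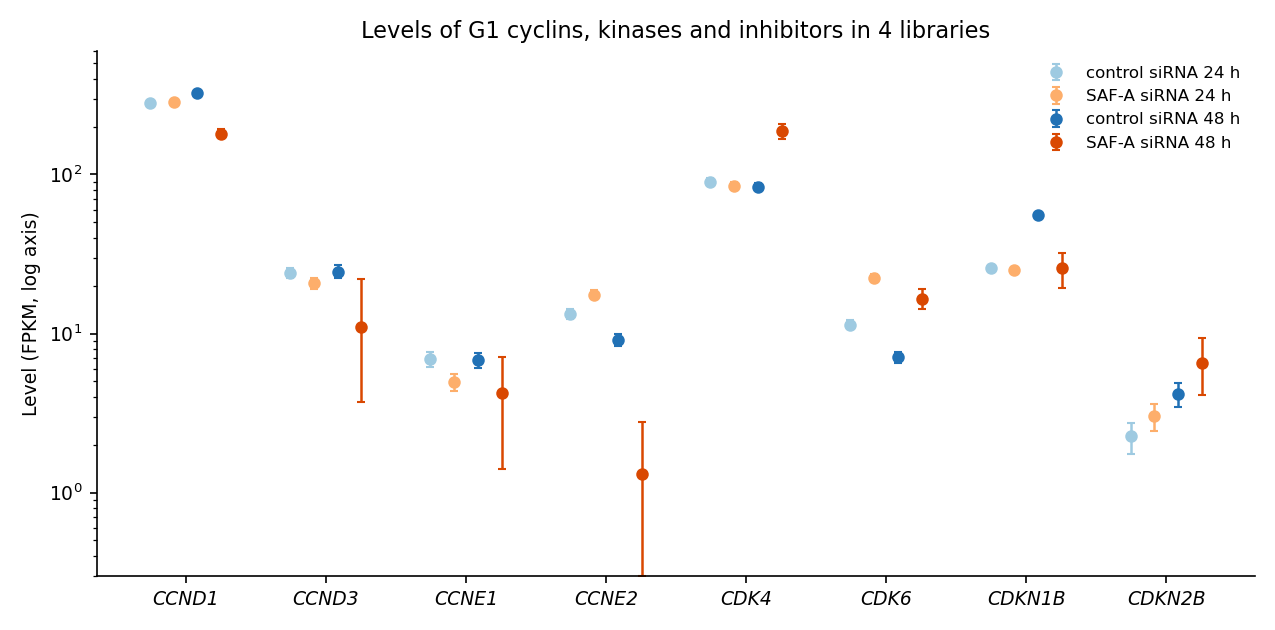
Levels of the 8 members with a mean of at least 1 FPKM, on a log axis, with 1 point per library and the deposited 95% interval as a bar; the lower bar of CCNE2 in the SAF-A 48 h library reaches 0 and is cut off at the foot of the axis. CDK4 and CDK6 stand higher in the SAF-A 48 h library than in the control 48 h library, and CCND1, CCND3, CCNE2 and CDKN1B stand lower.

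Cyclin D1 dominated the D-type cyclins in every library and was the most abundant member in 3 of the 4. CCND1 (chr11:69455873-69469242, hg19) encodes the mitogen-induced partner of CDK4 and CDK6. Its level was 283 FPKM (279.9 to 286) under control siRNA and 287 FPKM (284 to 290.1) under SAF-A siRNA at 24 h, 326 FPKM (323 to 329.9) under control siRNA and 181 FPKM (168 to 193) under SAF-A siRNA at 48 h. The 24 h libraries overlapped in their intervals, and the SAF-A 48 h library was the lowest of the 4 by a gap wider than any interval. At 48 h the SAF-A level was 0.553 of control (0.511 to 0.597), a difference of -0.85, which fell short of 2-fold. This value rests on 899 reads in the shallow library and 38159 in its control. Between 24 h and 48 h CCND1 was 1.15 times higher under control siRNA (1.13 to 1.18) and 0.629 of its earlier level under SAF-A siRNA (0.581 to 0.679), so the changes over time pointed in opposite directions.

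Cyclin D3 was lower than cyclin D1 by an order of magnitude. CCND3 (chr6:41902671-42016632) stood at 24.1 FPKM (22.4 to 26.0) and 20.7 FPKM (19.0 to 22.4) under control and SAF-A siRNA at 24 h, and at 24.5 FPKM (22.3 to 26.9) and 10.9 FPKM (3.70 to 22.0) at 48 h. The 3 deep libraries lay close together and the shallow library was lowest. Its 48 h difference was -1.10, a ratio of 0.446 (0.138 to 0.987), with intervals that barely missed each other and 25 reads in the SAF-A library. The transcript NM_001760 made up 95.8% to 100% of CCND3 in the deep libraries. Cyclin D2 was all but silent: CCND2 (chr12:4382902-4414522) was at 0.0113, 0.0206 and 0.0166 FPKM in the first 3 libraries, which is 2, 4 and 3 reads. It was listed at 0 in the SAF-A 48 h library, where 3 reads would be worth 0.390 FPKM, so a level like that of the other libraries was not detectable at this depth.

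The E-type cyclins differed in opposite directions at 24 h, CCNE2 being higher and CCNE1 lower after SAF-A knockdown, and at 48 h CCNE2 was lower while the intervals of CCNE1 overlapped. CCNE2 (chr8:95892453-95907482), the cyclin E2 gene and a target of E2F factors, was at 13.3 FPKM (12.3 to 14.3) in control cells and 17.6 FPKM (16.4 to 18.8) after SAF-A knockdown at 24 h, and at 9.13 FPKM (8.32 to 9.95) and 1.30 FPKM (0 to 2.76) at 48 h. No interval of the 4 libraries touched another, with the SAF-A library highest at 24 h and lowest at 48 h. At 24 h the difference was 0.38, a ratio of 1.32 (1.14 to 1.53), higher than in 96.1% of genes of at least 300 bases. At 48 h it was -2.14, a ratio of 0.143 (upper bound 0.332), from 4 reads against 659. CCNE2 was lower at 48 h than at 24 h under both siRNAs, by 0.50 on the log2 scale in control cells (ratio 0.686, 0.580 to 0.811) and by 3.01 after SAF-A knockdown (ratio 0.0741, upper bound 0.169). Of its 2726 exonic bases, 269 are shared with INTS8 on the opposite strand, whose own level was 20.7, 20.1, 22.0 and 30.1 FPKM in library order, and whether the counting used strand is not given in the sources used here.

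CCNE1 (chr19:30302901-30315215), the cyclin E1 gene, was at 6.95 FPKM (6.19 to 7.70) in control cells and 4.93 FPKM (4.32 to 5.55) after SAF-A knockdown at 24 h, a ratio of 0.710 (0.561 to 0.897) and a difference of -0.42 that placed it at percentile 3.81 of genes of at least 300 bases. At 48 h the levels were 6.80 FPKM (6.06 to 7.55) and 4.24 FPKM (1.41 to 7.07), a difference of -0.57 with overlapping intervals and 9 reads in the SAF-A library. CCNE1 was thus lower with separate intervals at 24 h only, where both libraries were deep.

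**Figure D2:**
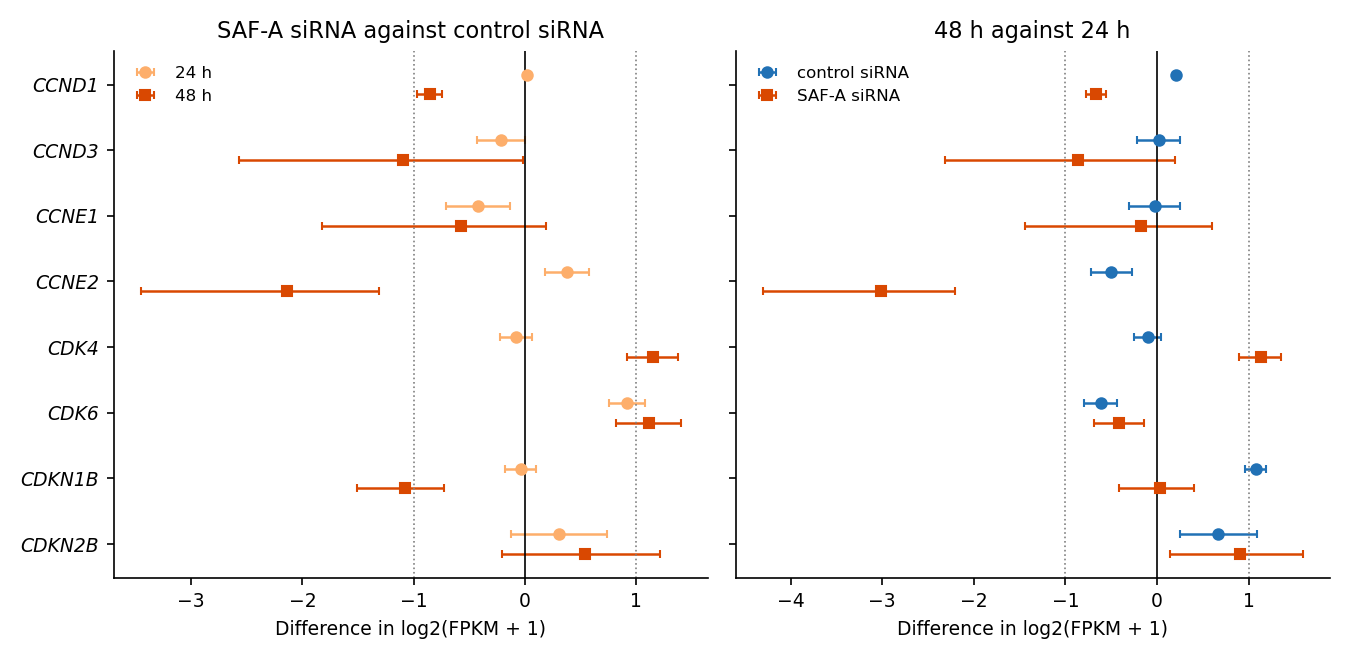
Differences in log2(FPKM + 1) of the 8 members, at left for SAF-A against control siRNA at 24 h and 48 h and at right between 48 h and 24 h under each siRNA; points are the differences, bars run between the most extreme bounds of the deposited intervals, and dotted lines mark 2-fold. CDK6 lies near or beyond 2-fold at both times at left (0.92 and 1.12), and CDKN1B reaches 2-fold in control cells at right (1.08).

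CDK6 was the member with the largest difference 24 h after knockdown, and CDK4 differed only in the 48 h libraries. CDK6 (chr7:92234235-92465941), one of the 2 kinases that D-type cyclins activate, was at 11.4 FPKM (10.6 to 12.1) in control cells and 22.4 FPKM (21.2 to 23.7) after SAF-A knockdown at 24 h, and at 7.10 FPKM (6.56 to 7.63) and 16.6 FPKM (14.3 to 19.0) at 48 h. Both SAF-A libraries were above both control libraries, with no overlap of intervals. The 24 h ratio was 1.97 (1.74 to 2.22), from 7866 and 3655 reads, and its difference of 0.92 exceeded that of 99.5% of genes of at least 300 bases while falling just short of the 2-fold rule. The 48 h ratio was 2.34 (1.87 to 2.90), from 230 and 2317 reads, a difference of 1.12 at percentile 88.3. CDK6 was lower at 48 h than at 24 h under both siRNAs, with ratios of 0.623 (0.540 to 0.717) in control cells and 0.739 (0.602 to 0.899) after knockdown. The differences at the 2 times were thus close, 0.20 apart on the log2 scale.

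CDK4 (chr12:58141510-58146230), the other kinase of D-type cyclins, was at 90.02 FPKM (85.4 to 94.6) in control cells and 85.1 FPKM (80.8 to 89.4) after SAF-A knockdown at 24 h, and at 83.8 FPKM (79.5 to 88.1) and 188 FPKM (168 to 208) at 48 h. The 3 deep libraries had overlapping intervals and the shallow library stood alone above them. The 48 h ratio was 2.24 (1.90 to 2.62), a difference of 1.16 at percentile 89.0, from 412 and 4317 reads. Within SAF-A knockdown, CDK4 was 2.21 times higher at 48 h than at 24 h (1.87 to 2.58), and in control cells the intervals of the 2 times overlapped. The TSPAN31 gene shares 517 of the 2002 exonic bases of CDK4 on the opposite strand, and it was at 3.30, 2.93, 3.84 and 3.79 FPKM, low beside CDK4 in every library. When only RNAs of at least 300 bases were scaled to a common total, the 48 h differences of CDK4 and CDK6 were 0.93 and 0.95, so neither reached 2-fold on that scale.

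p27 was the member that differed most between the times in control cells, and under SAF-A siRNA its levels at the 2 times overlapped. CDKN1B (chr12:12870302-12875305), which encodes the CIP/KIP inhibitor that accumulates in quiescent and crowded cells, was at 25.7 FPKM (24.4 to 27.0) in control cells and 25.1 FPKM (23.8 to 26.3) after SAF-A knockdown at 24 h, and at 55.3 FPKM (53.5 to 57.2) and 25.7 FPKM (19.4 to 31.9) at 48 h. One library stood out, the control library of 48 h, and the other 3 overlapped. In control cells the 48 h level was 2.15 times that of 24 h (1.98 to 2.34), a difference of 1.08 that exceeded 99.6% of genes of at least 300 bases. After SAF-A knockdown the same ratio was 1.02 (0.738 to 1.34). The 48 h ratio of SAF-A to control siRNA was 0.464 (0.339 to 0.598), a difference of -1.08, from 69 and 3500 reads. The SAF-A level at 48 h overlapped both levels of 24 h, and the control level at 48 h did not. The comparisons over time and between siRNAs share libraries and are not independent of each other.

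p15 was higher at 48 h than at 24 h under both siRNAs, and its intervals overlapped between siRNAs. CDKN2B (chr9:22002902-22009312) was at 2.25 FPKM (1.76 to 2.75) in control cells and 3.03 FPKM (2.45 to 3.61) after knockdown at 24 h, and at 4.17 FPKM (3.46 to 4.88) and 6.52 FPKM (4.10 to 9.39) at 48 h. The intervals of SAF-A and control siRNA overlapped at both times, with differences of 0.31 and 0.54. Between 24 h and 48 h the ratio was 1.85 (1.26 to 2.77) in control cells and 2.15 (1.14 to 3.83) after knockdown, with separate intervals in both. In control cells its transcripts differed: NM_004936 was higher at 48 h (ratio 5.06, 3.15 to 9.22), and NM_078487 overlapped between the times (ratio 0.838, 0.562 to 1.23). The CDKN2B ratio of 2.15 corresponds to 0.90 on the log2(FPKM + 1) scale, under the 2-fold rule. p57 was barely detected: CDKN1C (chr11:2904448-2906995), an imprinted gene, was at 0.0686, 0.168 and 0.180 FPKM in the first 3 libraries, from 3, 8 and 8 reads. It was listed at 0 in the SAF-A 48 h library, where 3 reads would be worth 1.43 FPKM.

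The order of levels shifted between libraries. FPKM is per length of transcript, so levels can be set side by side between genes. In the control libraries and the SAF-A 24 h library the order began CCND1, CDK4, CDKN1B, and CCND1 was 3.14 to 3.90 times CDK4. In the SAF-A 48 h library CDK4 and CCND1 could not be separated, since their intervals overlapped. CDK6 was the sixth member in both control libraries and the fourth in both SAF-A libraries. Neighbours with overlapping intervals were CDKN1B and CCND3 in control cells at 24 h, CDK6 and CCND3 after knockdown at 24 h, CDK6 and CCNE1 in control cells at 48 h, and every neighbouring pair from CDK6 down in the SAF-A 48 h library. CDKN1C and CCND2, the lowest, also overlapped in both 24 h libraries.

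Summed by role, the ratio of D-type cyclins to their kinases was lowest in the SAF-A library of 48 h and highest in the control library of 48 h, and the bounds of both were apart from those of the 24 h libraries, which overlapped. The D-type cyclins summed to 307, 308, 351 and 192 FPKM in library order, and CCND1 made up 92.1%, 93.3%, 93.0% and 94.3% of them. The 2 kinases summed to 101, 108, 90.9 and 204 FPKM. The ratio of D-type cyclins to kinases was 3.03 (2.83 to 3.25), 2.86 (2.68 to 3.07), 3.86 (3.61 to 4.15) and 0.937 (0.758 to 1.18). CDK6 supplied 11.2% of kinase FPKM in control cells and 20.8% after knockdown at 24 h, and 7.80% and 8.10% at 48 h, where CDK4 was higher as well. The inhibitors summed to 28.0, 28.3, 59.7 and 32.2 FPKM, and their ratio to the kinases was 0.277, 0.263, 0.656 and 0.157. The highest of these ratios was that of control cells at 48 h and the lowest that of SAF-A cells at 48 h, with bounds of 0.595 to 0.726 and 0.103 to 0.227. CCNE2 supplied 65.7%, 78.1%, 57.3% and 23.5% of E-type cyclin FPKM, the last with bounds of 0% to 66.1%. These are ratios of RNA, and protein was not measured here.

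**Figure D3:**
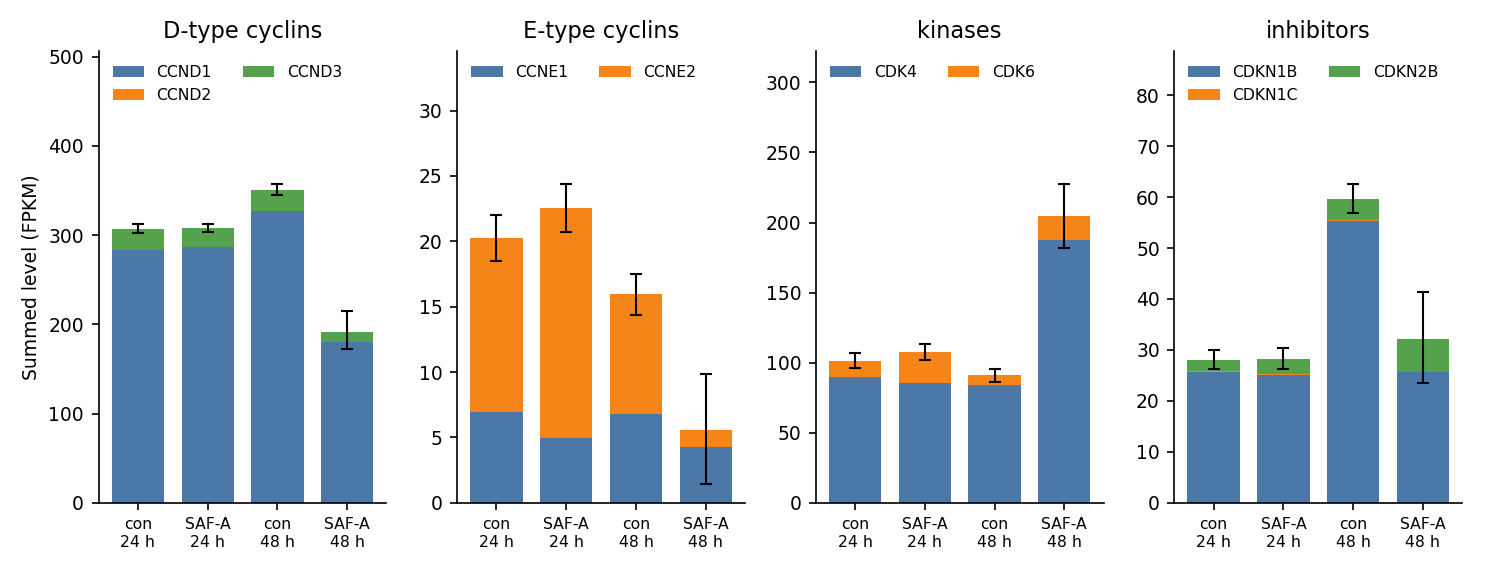
Summed FPKM of D-type cyclins, E-type cyclins, kinases and inhibitors in each library, stacked by gene, with bars between the summed lower and upper deposited bounds; the vertical scales differ between panels. The kinase total is highest (204 FPKM) and the D-type cyclin total lowest (192 FPKM) in the SAF-A 48 h library.

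CDK6 and CDKN2B have 2 transcripts each that could be followed separately, and in both genes the shares of the transcripts differed at 24 h. CDK6 has 2 RefSeq transcripts in the files that differ in their first exon. NM_001259 was at 10.0, 17.9, 6.35 and 16.6 FPKM in library order, and NM_001145306, which begins further upstream, at 1.36, 4.52, 0.744 and 0.00935 FPKM. At 24 h both were higher after SAF-A knockdown, NM_001259 with a ratio of 1.78 (1.60 to 1.98) and NM_001145306 with a ratio of 3.31 (2.68 to 4.16). NM_001145306 thereby made up 20.2% of CDK6 after knockdown and 12.0% in control cells, a shift that 48.3% of 5412 genes with several transcripts equalled or passed.

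CDKN2B has 2 transcripts with the same first and last base. NM_004936 was at 0.540, 1.96, 2.73 and 0.00172 FPKM and NM_078487 at 1.71, 1.07, 1.44 and 6.52 FPKM. At 24 h NM_004936 was 3.62 times higher after SAF-A knockdown (2.203 to 6.71) and NM_078487 lower, with a ratio of 0.625 (0.407 to 0.935), so the share of NM_004936 was 24.0% in control cells and 64.6% after knockdown. It was 65.5% in control cells at 48 h. A shift of this size, 40.6 percentage points, was equalled or passed by 9.61% of 5412 genes at 24 h, and that of 41.6 points over time in control cells by 8.87% of 5413 genes. In the SAF-A 48 h library 1 transcript of each gene was almost at 0: NM_001145306 at 0.0564% of CDK6 and NM_004936 at 0.0263% of CDKN2B. NM_004936 had held the larger share of CDKN2B in the SAF-A 24 h and control 48 h libraries. The shallow library emptied transcripts widely, among 4545 transcripts with 10% to 90% of their gene in both 24 h libraries. Of these, 25.7% were under 1% there against 2.82% in the control 48 h library, so its split between transcripts is not read as a result. The shares over all genes were counted after the data were seen.

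**Figure D4:**
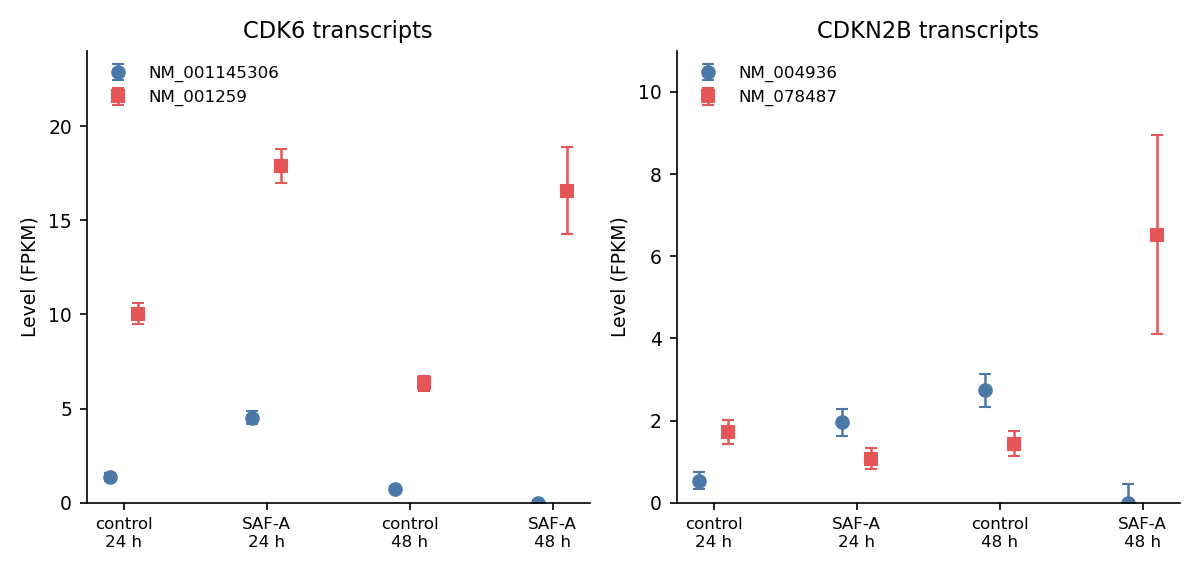
Levels in FPKM of the 2 transcripts of CDK6 (left) and of CDKN2B (right) in each library, with the deposited 95% intervals as bars. Both CDK6 transcripts are higher after SAF-A knockdown at 24 h, and the 2 CDKN2B transcripts trade places between the control and SAF-A libraries of 24 h.

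Genes around this circuit were taken from 6 lists, and on the log2(FPKM + 1) scale no gene of any list passed 2-fold in either direction at 24 h, where 1.83% of all tested genes were higher and 1.25% lower. On plain FPKM ratios, TGFBR1, FBXO4 and FOS passed 2-fold at that time. At 48 h the shares of all tested genes, against which the counts of each list are to be read, were 14.2% higher and 20.1% lower. The genes of DNA synthesis that E2F factors switch on were the most uniform list in sign. All 17 were below 0 at 24 h, with a median difference of -0.34, and all 17 at 48 h, with a median of -0.96 and 8 at least 2-fold lower. Being below 0 was common: at 24 h CDKN2C, at 0.0003, stood above 64.5% of genes of at least 300 bases. In size the 17 ranged from -0.64 to -0.05 at 24 h and from -2.90 to -0.31 at 48 h. The intervals of ORC1 and CCNA2 overlapped at 24 h. All genes of at least 300 bases had medians of -0.07 and -0.11. CDT1, which licenses replication origins, was at 11.5 FPKM in control cells and 7.003 FPKM after knockdown at 24 h (ratio 0.610, 0.519 to 0.714). At 48 h it was at 9.44 and 0.998 FPKM, the latter from 3 reads (0 to 2.15). TYMS, the thymidylate synthase gene, was at 44.2 and 29.2 FPKM at 24 h (ratio 0.660, 0.576 to 0.756) and at 40.1 and 30.9 FPKM with overlapping intervals at 48 h. CCNE2, itself a target of E2F factors, was higher at 24 h where these 17 genes were below 0, though it was lower with them at 48 h. CCNE1, the other E-type cyclin that E2F factors switch on, was lower at 24 h (ratio 0.710, 0.561 to 0.897).

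Pocket proteins and E2F factors had 12 of 13 genes tested, with medians of -0.09 at 24 h and -0.60 at 48 h, and 1 gene at least 2-fold lower at 48 h. That gene was E2F2, an activating E2F factor, at 3.66 and 2.11 FPKM at 24 h (difference -0.59, intervals apart) and 3.02 and 0.329 FPKM at 48 h (difference -1.60, from 2 reads in the SAF-A library). RBL1, which encodes the pocket protein p107, was at 11.4 and 8.18 FPKM at 24 h, a ratio of 0.721 (0.579 to 0.895), and its intervals overlapped at 48 h. E2F1 was at 11.5 and 5.27 FPKM at 48 h, a ratio of 0.457 (0.213 to 0.737) that just missed 2-fold on the log2(FPKM + 1) scale. Of the 8 genes of CDK2, its activators and cyclin A2, 7 were below 0 at 24 h (median -0.15). Of the 7, only CDK2 and CDC25A had intervals apart. At that time 64.5% of genes of at least 300 bases stood below CDKN2C, which was at 0.0003. At 48 h 1 of the 8 was at least 2-fold higher and 3 were at least 2-fold lower. Of these 3, CDC25A and CCNA2 also belong to the 17 E2F-responsive genes and are counted there too. CDC25A, the phosphatase that activates CDK2, was at 31.5 and 24.0 FPKM at 24 h (ratio 0.763, 0.674 to 0.865). At 48 h it was at 34.5 and 3.75 FPKM, the latter from 16 reads. CCNA2, the cyclin of S phase, was at 77.3 and 70.6 FPKM with overlapping intervals at 24 h and stood at 76.1 and 17.7 FPKM at 48 h, a difference of -2.04.

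The other 4 CDK inhibitors split by family member. CDKN1A, the p53 target p21, was at 123 and 141 FPKM at 24 h (ratio 1.15, 1.00 to 1.31) and at 138 and 261 FPKM at 48 h (ratio 1.89, 1.53 to 2.31), and it was thus more abundant than CDKN1B in each library. CDKN2A, which shares the INK4 locus with CDKN2B and encodes p16 and ARF, had overlapping intervals at 24 h and stood at 56.5 and 115 FPKM at 48 h, a difference of 1.01. CDKN2C, the p18 gene, was at 20.4 FPKM in both libraries of 24 h and stood at 19.7 and 5.38 FPKM at 48 h, a difference of -1.70 from 9 reads in the SAF-A library. CDKN2D, the p19 gene, differed by -1.16 at 48 h with overlapping intervals and 2 reads.

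Among 15 genes of ubiquitin-dependent turnover the medians were -0.04 and 0.18, with 2 at least 2-fold higher and 3 lower at 48 h. FBXO4, an F-box protein reported to target cyclin D1, was at 6.54 and 3.24 FPKM at 24 h, a ratio of 0.495 (0.321 to 0.737) and a difference of -0.83. CKS1B, the cofactor that lets SKP2 recognise p27, did not differ beyond its intervals at 24 h and was at 24.2 and 5.01 FPKM at 48 h, from 4 reads in the SAF-A library. FBXW7, the F-box protein for cyclin E, was at 11.1 and 13.8 FPKM at 24 h, with overlapping intervals.

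Of 19 upstream regulators 15 were tested, with medians of -0.09 and -0.47, and 4 were at least 2-fold higher and 5 lower at 48 h. The genes named here were picked as the 2 with the largest differences at each time. Among them are the TGF-beta receptors, which act on CDKN2B through SMAD proteins. The intervals of CDKN2B itself overlapped between siRNAs at both times, and a link was not tested. TGFBR1 was at 4.69 and 9.74 FPKM at 24 h (ratio 2.08, 1.79 to 2.41, difference 0.92) and at 1.98 and 11.3 FPKM at 48 h (difference 2.04), and TGFBR2 at 16.4 and 22.5 FPKM at 24 h (ratio 1.37, 1.18 to 1.60). SMAD3 was lower, at 7.64 and 5.60 FPKM at 24 h (ratio 0.734, 0.570 to 0.925) and at 13.0 and 1.91 FPKM at 48 h, from 14 reads in the SAF-A library. FOS, an immediate early gene of the mitogen response, was at 0.328 and 0.767 FPKM at 24 h, from 18 and 46 reads. At 48 h it was at 6.48 FPKM in control cells, from 363 reads, and listed at 0 in the shallow SAF-A library.

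**Figure D5:**
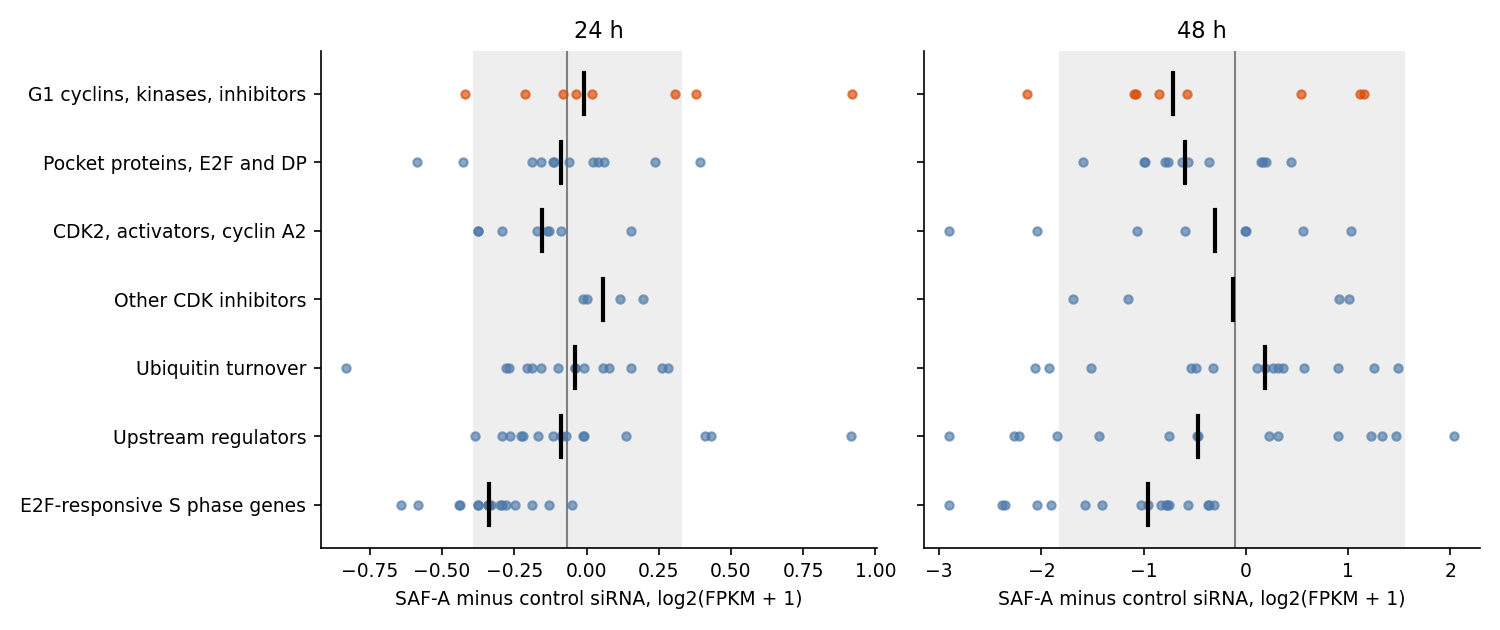
Differences in log2(FPKM + 1) between SAF-A and control siRNA at 24 h (left) and 48 h (right) for each tested gene of the G1 members and of the 6 lists; points are genes, black bars medians, the grey line the median of all genes of at least 300 bases and the shaded band their central 90%. The 17 E2F-responsive genes lie below 0 in both panels, and the horizontal scales differ.

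Genes whose levels followed those of the most variable members were sought among 7689 genes of at least 300 bases and a mean of at least 5 FPKM, by the Euclidean distance between mean-centred log2(FPKM + 1) values over the 4 libraries. With 4 points that share libraries, this is a description only. The 3 nearest to CCNE2 were ID1 (distance 0.127; 47.2, 58.5, 32.5 and 5.92 FPKM in library order), MOK (0.149) and H2AC12 (0.215). The 3 nearest to CDK6 were RDX (distance 0.0610; 19.7, 36.0, 12.1 and 28.1 FPKM), EMP1 (0.204) and SMIM14 (0.226). The 3 nearest to CDKN2B were FMC1-LUC7L2 (distance 0.0854; 7.14, 9.69, 11.9 and 18.9 FPKM), JARID2 (0.111) and LINC-PINT (0.118). RDX, which encodes the membrane linker radixin, had the same rank order of libraries as CDK6, and so had EMP1 and SMIM14. These genes were picked for their likeness to CDK6, so the shared order is no separate result.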

How the data were processed

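Total RNA from 4 RPE1 cultures was sequenced as 1 library per siRNA and time. The submitters' processing notes name TopHat2 2.0.10, Bowtie2 2.1.0, Cufflinks 2.2.1, Cuffdiff and the build hg19; the use of strand, the treatment of reads with several matches and filters are not given in the sources used here. The deposited gene tables hold FPKM, estimated by the authors per RefSeq transcript, with 95% bounds. Of 47338 rows, 97.1% matched a RefSeq symbol; FPKM and bounds were summed per symbol. Mapped reads were computed from the deposited coverage attribute, and the reads behind a level assume fragments of 200 ± 80 bases.

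Differences used log2(FPKM + 1); a gene counted as tested at a mean of at least 1 FPKM and as higher or lower at 2-fold, computed with Python 3.11.15, numpy 2.4.6 and pandas 2.3.3. The calculation returned known changes that had been put into the levels of real genes. That run held no noise and no gap in depth, so it checks the arithmetic only. Alternatives were other pseudocounts, filters, scalings, thresholds and transcripts. Named genes were the members, HNRNPU, the 2 genes per list with the largest difference at each time, and the 3 nearest profiles of the 3 widest-ranging members (unmatched identifiers were skipped). MYC and MAX were added because they bind the E-box marked above. The members and lists were chosen with earlier results of these data known.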

Additional observations from a re-analysis of the deposited data

Results flagged for a closer look

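Both results here were singled out because 2 effects under the same contrast pointed in opposite directions with the deposited intervals apart in each; the difference between the effects was not tested, as each group is 1 library. CCND1 differed between 48 h and 24 h by 0.21 on the log2(FPKM + 1) scale under control siRNA and by -0.67 under SAF-A siRNA. CCNE2 differed between SAF-A and control siRNA by 0.38 at 24 h and by -2.14 at 48 h. The negative value of each pair rests on the SAF-A 48 h library of 1216740 mapped reads, in which CCND1 had 899 reads and CCNE2 had 4.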

How the results depend on the processing

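Of 100 recomputed counts and medians of the members, 87 stayed within the limits set for them and 13 moved; of 160 recomputed differences of single members, 142 stayed and 18 moved, and none with a difference of at least 2-fold changed sign. The 13 were these. For 48 h against 24 h under SAF-A siRNA, the count of members at least 2-fold higher was 1 and became 2 with a pseudocount of 0.1, with TPM, with a threshold of 1.5-fold and with the top transcript only, and 0 when RNAs of at least 300 bases were rescaled to a common total. The count of lower members there was 1 and became 2 with that rescaling, 3 at 1.5-fold and 2 with the top transcript. The rescaling took the higher members at 48 h from 2 to 0. A threshold of 1.5-fold gave 1 higher member at 24 h, and 2 higher and 1 lower over time in control cells. TPM moved the 24 h median of the members from -0.01 to -0.19, and that of all genes from -0.06 to -0.22; the rescaling moved the median of all genes at 48 h from -0.12 to -0.35. Under the rescaling CCND1 differed by -1.09 at 48 h, past 2-fold. CDK6 differed by 0.74 at 24 h with TPM. Taken by its top transcript, NM_078487, CDKN2B differed by -0.39 at 24 h and over time by -0.16 in control cells. NM_078487 has the highest mean only through its 6.52 FPKM in the SAF-A 48 h library, whose split between transcripts is not read as a result. The other transcript, NM_004936, was higher in both comparisons, with ratios of 3.62 and 5.06. By NM_078487 the CDKN2B difference over time under SAF-A siRNA was 1.86, which rests on the same split. Single members changed sign in 11 cases, 4 at 24 h, 0 at 48 h, 4 over time in control cells and 3 after knockdown, the largest with a reported difference of 0.67. Why these values moved was not tested. At 1216740 mapped reads, the SAF-A library of 48 h limits every comparison that uses it. No paired analysis was possible because each group holds 1 library, and no replicate could be left out.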
